A study of Homo sapiens with 40 samples.

Results

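The tensins TNS1, TNS2, TNS3 and TNS4 were described in BEAS-2B, an immortalised human lung epithelial cell line. The 4 genes were the rows of the deposited table whose symbols were TNS1 to TNS4, out of 62263 genes, and 3 of them (all but TNS4) were among the 16735 genes abundant enough for the fitted tests. The family was chosen because TNS1 was listed at 0 in every polysome library of IL-13-treated control cells and above 0 in every matching library of cells labelled knockdown. Those values, and every TNS1 contrast that uses IL-13 libraries, are therefore given without a test, as is the comparison of lines in IL-13 polysome libraries for every member. Frac-seq, which sequences total mRNA (input) beside mRNA bound to polyribosomes (polysome), was applied to 2 constitutive hairpin lines, shControl (control) and shIGF2BP3 (knockdown), as the growth protocol names them. The sample titles write siC and siIGF2BP3 in their place, and the protocol was followed. IGF2BP3 is an mRNA-binding protein. All cells were starved overnight in 2% serum, and were then left unstimulated or given the cytokine IL-13 at 100 ng/ml and harvested 24 h later. Fraction, treatment and line gave 8 groups of 5 libraries, 40 in all. If these were hairpin lines, as the protocol says, there was 1 line per hairpin. The hairpin and any other difference between the lines then cannot be told apart. The labels call the 5 libraries of a group separate samples and do not say that they came from separate cultures, so p-values measure the spread between these libraries only.

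Tensins are scaffold proteins of integrin adhesions, the contacts through which a cell's actin skeleton is tied to the matrix outside. Their shared C-terminal part holds an SH2 domain, which binds phosphorylated tyrosines, and a PTB domain, which binds the tails of β integrins. TNS4 (also called CTEN) lacks the long N-terminal region of the other members. Tensin-rich fibrillar adhesions are the sites where fibronectin is drawn into fibrils.

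TNS1 (ENSG00000079308.21) lies on the minus strand of chromosome 2 at 217799588 to 218033982. TNS2 (ENSG00000111077.18) lies on the plus strand of chromosome 12 at 53046969 to 53064372. TNS3 (ENSG00000136205.18) lies on the minus strand of chromosome 7 at 47275154 to 47582558, and TNS4 (ENSG00000131746) on the minus strand of chromosome 17 at 40475828 to 40501597. These positions are those of GENCODE release 29 on GRCh38, and the build behind the deposited table is not given in the sources used here. Because binding to polysomes starts with initiation, the start context of each principal transcript is shown, 5′ to 3′ on the transcript's strand, with the base at -3, the start codon and the base at +4 in capitals.
TNS1 (chr2:218010181-218010207, minus strand): ctcggggtcAgcATGActcggctgagt
TNS2 (chr12:53049132-53049158, plus strand): ggccggaggCccATGGatgggggtgga
TNS3 (chr7:47439622-47439648, minus strand): ctgagtcccAccATGGaggagggccat
TNS4 (chr17:40496411-40496437, minus strand): accacccccAccATGTcccaggtgatg

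The context known as Kozak's, a purine at the first marked position with a G behind the start codon, was complete in the TNS3 window and in none of the other 3. Transcript lengths differed too. The principal TNS1 transcript was 10680 bases long with 5580 coding bases, TNS3 7618 with 4335, TNS2 4944 with 4257 and TNS4 4067 with 2145, where the median of 13229 tested protein-coding genes was 3151 bases. TNS1 had a 3′ UTR of 4874 bases and TNS2 one of 492 bases.

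TGGAC, a short motif to which IGF2BP proteins have been reported to bind, was counted on the transcript strand. TNS1 held 25 matches (2.34 per kilobase), TNS3 16 (2.10), TNS2 7 (1.42) and TNS4 6 (1.48), against a median of 1.16 per kilobase. The motif was in 94.0% of the 13229 transcripts, so its presence alone did not set the family apart. The densest stretch of 150 bases in the TNS1 coding sequence, coding bases 1866 to 2015 within 1 exon, is shown with its 3 matches in capitals. A match is a description of letters and not a binding site.
TNS1 coding stretch (chr2:217848565-217848714, minus strand): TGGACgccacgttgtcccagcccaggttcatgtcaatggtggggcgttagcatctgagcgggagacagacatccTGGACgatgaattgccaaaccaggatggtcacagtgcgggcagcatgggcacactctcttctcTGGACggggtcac

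Library totals ran from 14044352 to 40441061 estimated counts in input and from 1816848 to 34082191 in polysome. Polysome libraries under 5000000 counts were unstimulated knockdown replicates 1 and 5 and IL-13 knockdown replicate 5. IGF2BP3 averaged 35.2 and 35.4 CPM (counts scaled to the library's total and between libraries) in control input and 24.9 and 25.9 CPM in knockdown input, unstimulated and with IL-13. In polysome the averages were 11.2 and 10.6 CPM in control and 11.2 and 9.15 CPM in knockdown cells. In each of these 4 settings the lines had overlapping ranges. The epithelial label was met by KRT8 and KRT18, with median input levels of 844.6 and 579.8 TPM (scaled for depth and transcript length). The epithelial genes KRT5, EPCAM and CDH1 had medians of 0.0778, 0.299 and 0.144 TPM, and VIM and TAGLN, which mesenchymal cells express, had 1278 and 562.5 TPM. Of 10 muscle and fibroblast genes, MYH11, DES, LUM, DCN and PDGFRA had a median input level of 0 TPM, while TAGLN, COL1A1 (103.3), PDGFRB (30.7), CNN1 (23.2) and ACTA2 (4.97 TPM) were present. Their sum ran from 374.2 to 1060 TPM in input and from 765.7 to 3788 TPM in polysome, and its part in the tensin values was not tested. The leukocyte genes PTPRC and CD3E had a median of 0 TPM and CD68 8.23 TPM. In bulk RNA, fewer cells expressing a gene and less RNA per cell cannot be told apart.

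TNS3 was the leading tensin RNA of these cells, TNS2 came next, TNS1 was scarce and TNS4 was almost undetected. On the length-scaled TPM, the median input level was 44.5 for TNS3, 12.0 for TNS2, 2.62 for TNS1 and 0 for TNS4. As shares of summed tensin TPM in input, TNS3 held a median of 74.2% (range 51.3 to 78.6), TNS2 21.6% (15.3 to 39.3) and TNS1 4.36% (1.83 to 9.33). In polysome libraries the shares were 63.5% (35.0 to 85.8) for TNS3, 34.3% (14.2 to 60.1) for TNS2 and 2.60% (0 to 6.29) for TNS1. TNS3 exceeded TNS2 in 39 of 40 libraries. The exception was polysome unstimulated control replicate 1, with 2.40 TPM of TNS3 and 4.12 TPM of TNS2.

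**Figure D1:**
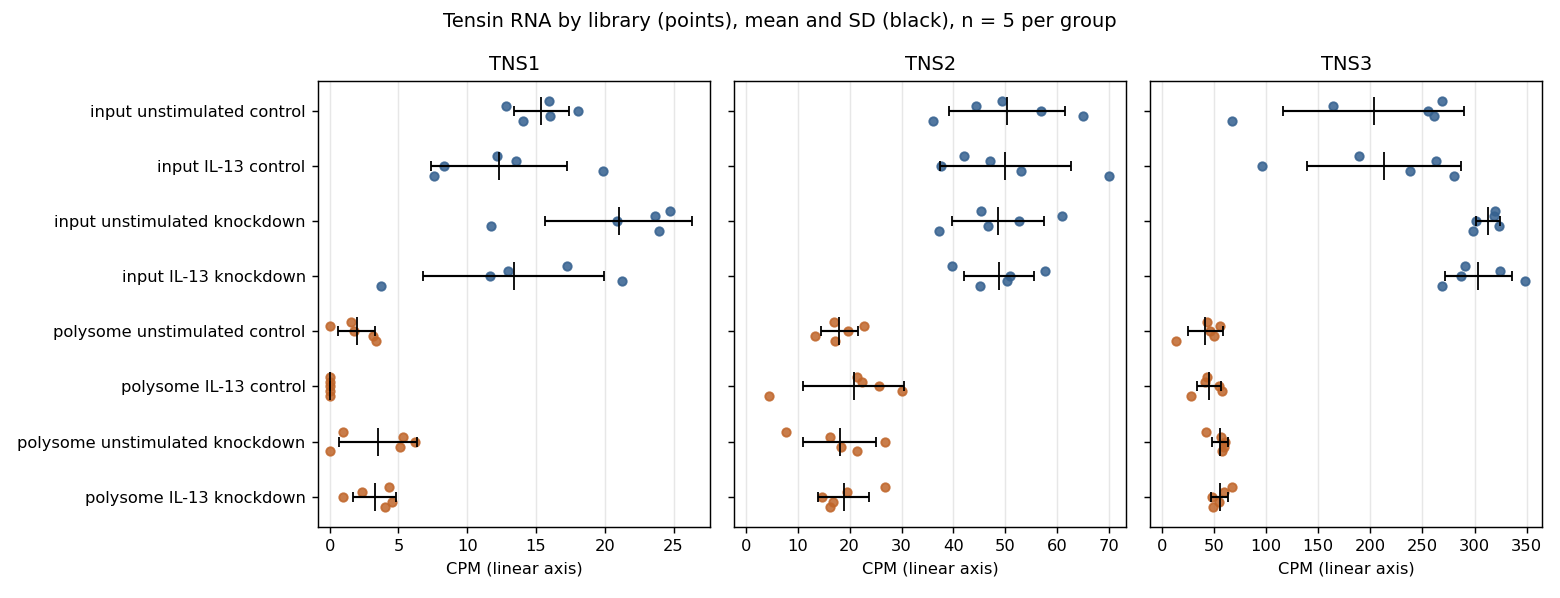
Level of TNS1, TNS2 and TNS3 in CPM (x axis, linear, its own scale per panel) in each of the 8 groups (y axis); points are libraries, the black mark is the mean and its bar the SD, n = 5. Within each line and treatment every input level of TNS3 lies above every polysome level, and TNS1 is at 0 in all 5 polysome IL-13 control libraries.

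TNS1, the member first known for capping and bundling actin, was low but present in all input libraries and scarce or absent in polysome libraries. In unstimulated control input it had 14.1, 16.1, 18.0, 12.8 and 16.0 CPM, and in unstimulated control polysome 3.34, 3.18, 1.73, 0 and 1.56 CPM, in replicate order. Unstimulated knockdown input held 23.9, 11.8, 20.9, 23.7 and 24.7 CPM, and unstimulated knockdown polysome 0, 5.11, 6.17, 5.30 and 0.978 CPM. In both lines every polysome library lay below every input library.

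TNS1 was lower in polysome than in input of unstimulated control cells by a log2 difference of -3.01 ± 0.629 (SE, n = 5 and 5, edgeR adjusted p = 0.000198). In unstimulated knockdown cells the log2 difference was -2.43 ± 0.606 (SE, n = 5 and 5, edgeR adjusted p = 0.00155). Of the 16735 genes, 3.08% had a more negative difference than TNS1 in unstimulated control cells.

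With IL-13 the TNS1 values of the lines parted in the polysome fraction. Input held 7.57, 19.9, 8.29, 13.6 and 12.2 CPM in control cells and 3.74, 21.3, 11.6, 13.0 and 17.3 CPM in knockdown cells, so the input ranges overlapped. Polysome IL-13 control libraries were listed at 0 in all 5, while polysome IL-13 knockdown libraries had 4.06, 4.55, 0.965, 2.38 and 4.33 CPM. These rested on 108.0, 115.3, 33.5, 74.0 and 9.8 estimated counts.

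The zeros of IL-13 control polysome were set at a floor of 3 counts per library, or 0.194 CPM. The TNS1 mean of IL-13 knockdown polysome was 16.8-fold above that floor. The mean of IL-13 control input was 63.3-fold above it, and that of unstimulated control polysome 10.1-fold. These folds leave out the spread of the higher group and are not lower bounds. Without single libraries they went down to 14.8, 53.5 and 8.33. In IL-13 knockdown cells the polysome to input difference was -2.08 ± 0.605 on the log2 scale (SE, n = 5 and 5). These 4 values use the IL-13 libraries that chose the family and have no test.

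A test between lines was possible in unstimulated polysome libraries. TNS1 there averaged 1.96 CPM ± 1.37 (SD, n = 5) with the control hairpin. The knockdown line averaged 3.51 CPM ± 2.81 (SD, n = 5). The log2 difference was 1.03 ± 0.616 (SE, n = 5 and 5, 95% interval -0.22 to 2.29, edgeR adjusted p = 0.771), and 0.0299% of all genes passed. In unstimulated input the log2 difference between lines was 0.45 ± 0.563 (SE, n = 5 and 5, edgeR adjusted p = 1), where 0.012% of all genes passed. The change of the line difference from input to polysome was 0.58 ± 0.83 (SE, edgeR adjusted p = 1) in unstimulated cells. None of these 3 passed, and the intervals reach past a 4-fold difference in polysome. Per-line IL-13 differences of TNS1 in input were -0.32 ± 0.563 in control and -0.65 ± 0.565 in knockdown cells (log2, SE, not tested).

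TNS1 was listed at 0 in 7 of 20 polysome libraries and in none of the 20 input libraries. Besides IL-13 control, the zeros were unstimulated control replicate 4 and unstimulated knockdown replicate 1. In polysome IL-13 control libraries 139 of 16735 tested genes (0.831%), of any level, were at 0 in all 5. Of 2294 tested genes with a mean input CPM within 1.5 times that of TNS1, 1 was, and it was TNS1 itself. The genes at 0 in all 5 control and above 0 in all 5 knockdown polysome IL-13 libraries were KLHDC1, MATK, NFXL1, TBC1D32 and TNS1, and the reverse pattern was met by PDCD6P1. These genes were listed after their values were seen, and since this pattern chose the family the counts support nothing about TNS1.

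The estimates of TNS1 also varied in the transcript length behind them. The ratio of estimated count to TPM, set against the library's median gene, reflects the length the quantification assigned to a gene. For TNS1 it ran from 1.77 to 4.18 over the 20 input libraries, a 2.36-fold range. For TNS2 the range was 1.06-fold and for TNS3 1.28-fold, where the median of 7057 genes was 1.06-fold and the 90th percentile 1.33-fold. GENCODE lists 16 protein-coding TNS1 transcripts between 278 and 10680 bases. Whether a listed 0 is a lack of fragments or their assignment to other models was not tested. The antisense gene TNS1-AS1 had a median of 4.54 estimated counts in input and 0 in polysome.

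**Figure D2:**
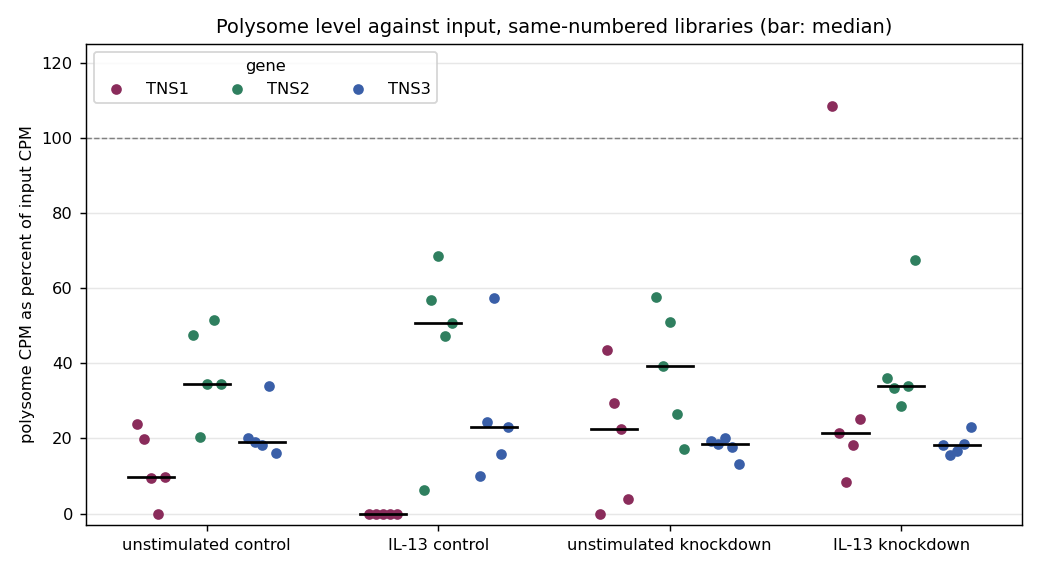
Polysome CPM as a percent of input CPM (y axis) for same-numbered libraries of the 4 settings (x axis), which the labels do not say came from the same cells; points are such pairs, bars are medians and the dashed line marks equal levels. TNS2 and TNS3 stay between 6.34% and 68.5%, and TNS1 spans 0% to 109%. CPM is relative to each library's total, so a percent is not the share of a gene's mRNA bound to polysomes.

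Over same-numbered libraries the polysome level was a median of 37.7% of input for TNS2, 18.6% for TNS3 and 9.69% for TNS1. CPM is relative to each library's total, so these percents are not the share of a gene's mRNA bound to polysomes. The TNS1 median includes the IL-13 control zeros that chose the family, and the IL-13 knockdown values that the choice required to be above 0. By setting it was 9.78% in unstimulated control, 22.4% in unstimulated knockdown and 21.4% in IL-13 knockdown cells, where TNS3 had 19.2%, 18.6% and 18.1%. By these medians TNS1 was below TNS3 in the first of these alone, but the numbers were not taken to pair the libraries. In unstimulated knockdown cells TNS1 ran from 0% to 43.5% and TNS3 from 13.3% to 20.25%. The order of TNS1 and TNS3 was not tested. TNS2, which binds the RhoGAP DLC1 at adhesions, was called lower in polysome in all 4 settings. Unstimulated control input had 36.0, 65.0, 56.8, 44.3 and 49.4 CPM, and unstimulated control polysome 17.1, 13.3, 19.7, 22.9 and 17.1 CPM. Unstimulated knockdown input had 37.3, 46.6, 52.6, 60.9 and 45.4 CPM, and its polysome libraries 21.4, 18.3, 26.8, 16.1 and 7.82 CPM. Input and polysome did not overlap in either line.

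With IL-13, TNS2 in control input was at 70.0, 53.1, 37.5, 47.0 and 42.1 CPM and in control polysome at 4.44, 30.1, 25.7, 22.3 and 21.4 CPM. In IL-13 knockdown cells input was at 45.1, 50.3, 50.8, 57.7 and 39.7 CPM and polysome at 16.3, 16.9, 14.6, 19.6 and 26.9 CPM. The lowest polysome value, 4.44 CPM, came from IL-13 control replicate 1 and rested on 41.3 estimated counts.

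The TNS2 log2 differences were -1.48 ± 0.289 (SE, n = 5 and 5, edgeR adjusted p = 6.68e-05) in unstimulated control and -1.26 ± 0.287 (SE, n = 5 and 5, edgeR adjusted p = 0.000498) in IL-13 control cells. They were -1.40 ± 0.291 in unstimulated knockdown (SE, n = 5 and 5, edgeR adjusted p = 0.000171) and -1.40 ± 0.291 in IL-13 knockdown cells (SE, n = 5 and 5, edgeR adjusted p = 0.000164). The antisense gene TNS2-AS1 had a median of 34.2 estimated counts in input, against 1402 for TNS2.

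TNS3, the tensin linked to cell migration and to signalling from growth factor receptors, was called lower in polysome in all 4 settings. Unstimulated control input had 67.1, 261.0, 255.0, 164.5 and 268.4 CPM, and its polysome libraries 13.6, 50.01, 46.6, 55.9 and 43.6 CPM. Unstimulated knockdown input had 298.7, 323.5, 301.2, 318.9 and 319.6 CPM, and its polysome libraries 57.9, 60.2, 61.0, 57.0 and 42.5 CPM. Replicate 1 of the unstimulated control was the lowest of its group in both fractions, and the knockdown input libraries were close together.

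With IL-13, TNS3 in control input was at 280.4, 238.4, 96.2, 262.6 and 188.8 CPM and in control polysome at 28.2, 58.0, 55.1, 41.7 and 43.5 CPM. In IL-13 knockdown cells input was at 268.5, 348.3, 286.9, 323.9 and 290.7 CPM and polysome at 48.7, 54.4, 47.9, 60.1 and 67.2 CPM. Again no polysome library of a setting reached an input library.

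The TNS3 log2 difference of polysome against input was -2.27 ± 0.294 (SE, n = 5 and 5, edgeR adjusted p = 6.07e-08) in unstimulated control and -2.23 ± 0.293 (SE, n = 5 and 5, edgeR adjusted p = 8.77e-08) in IL-13 control cells. It was -2.48 ± 0.297 in unstimulated knockdown (SE, n = 5 and 5, edgeR adjusted p = 1.52e-08) and -2.45 ± 0.296 in IL-13 knockdown cells (SE, n = 5 and 5, edgeR adjusted p = 1.73e-08).

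Counted by setting, 3 of 3 tested tensins were called lower in unstimulated control polysome, where 22.8% of all genes were, and 3 of 3 in unstimulated knockdown cells, where 22% were. With IL-13, TNS2 and TNS3, the 2 members with a test, were called lower in both lines, against 22.6% of all genes in control and 23.3% in knockdown cells. The median log2 difference of all genes was between -0.19 and -0.23 in the 4 settings.

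The drop in counts from input to polysome differed between TNS2 and TNS3 in knockdown cells, by a comparison added after the data were seen. The log2 ratio of TNS2 to TNS3 counts needs no scaling for library depth, and was not scaled for transcript length. In IL-13 knockdown cells it rose from -2.64 ± 0.176 (SD, n = 5) in input to -1.58 ± 0.157 (SD, n = 5) in polysome. That difference of 1.06 had no overlap between libraries (two-sided exact permutation p = 0.00794, the smallest that 5 against 5 allows, and 0.0317 adjusted over 4 settings). In unstimulated knockdown cells the difference was 0.99 (exact permutation p = 0.0159, adjusted 0.0317). In control cells it was 0.79 unstimulated and 0.71 with IL-13 (exact permutation p = 0.119 and 0.143, each 0.143 adjusted), which did not pass. Whether the lines differ in this was not tested. The length the quantification assigned to TNS3, against the library's median gene, had a median of 3.07 in input and 2.52 in polysome libraries. For TNS2 these medians were 1.92 and 1.89, all over libraries of at least 20 counts of the gene. The part of assigned length in the ratio was not tested.

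**Figure D3:**
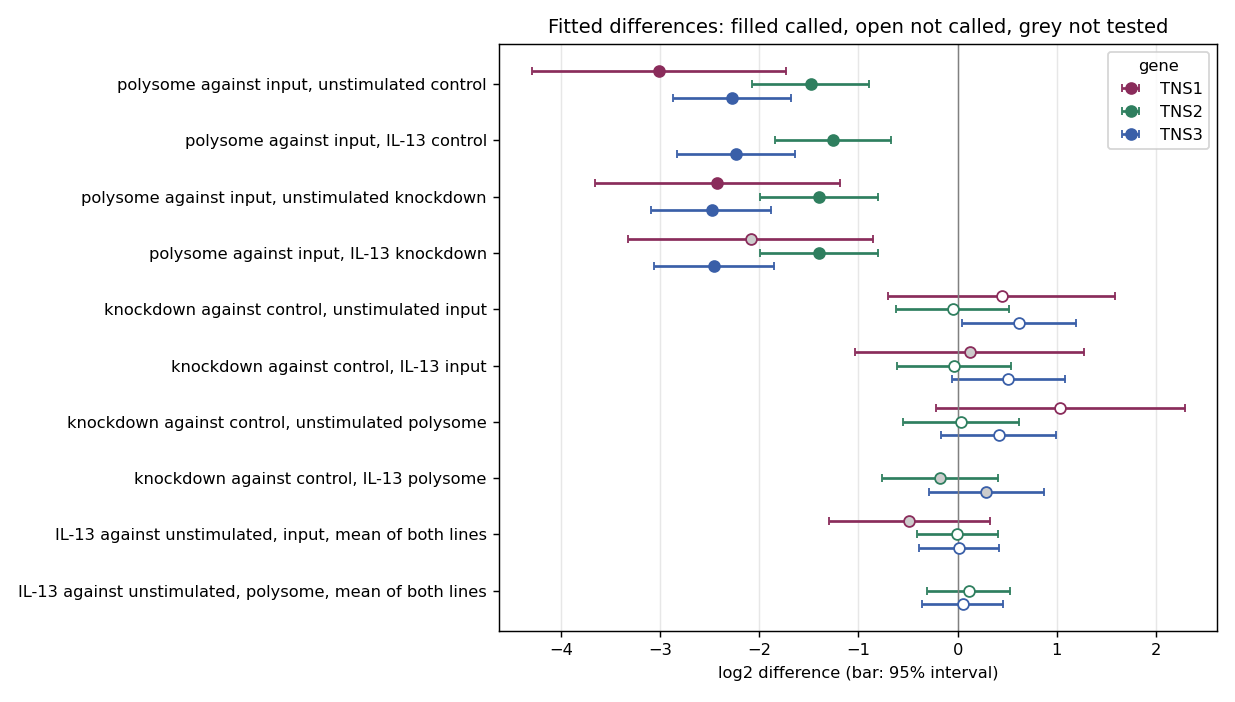
Fitted log2 differences (x axis) of TNS1, TNS2 and TNS3 in 10 comparisons (y axis), with 95% intervals; filled points passed at an adjusted p under 0.05, open points did not and grey points were not tested. The 3 TNS1 contrasts with the group at 0 are left out, and all polysome against input intervals shown lie below 0.

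Neither TNS2 nor TNS3 passed a test between lines. TNS2 differed between lines by a log2 of -0.05 ± 0.281 in unstimulated input, -0.03 ± 0.281 in IL-13 input (0% of all genes passed) and 0.03 ± 0.288 in unstimulated polysome (SE, n = 5 and 5, edgeR adjusted p = 1, 1 and 0.995). The 95% intervals of these 3 ran from -0.62 to 0.62. In IL-13 input 502 genes had an edgeR p under 0.05 before adjustment, and DESeq2 called 55. TNS3 in unstimulated input was higher in the knockdown line by 0.62 ± 0.281 (SE, n = 5 and 5, edgeR adjusted p = 1). The 95% interval of this difference was 0.0486 to 1.19, and its edgeR p before adjustment was 0.0332. Without unstimulated control replicate 1, the library lowest in TNS3, that difference was 0.40. For lines in unstimulated input 497 of all genes, TNS3 among them, had an edgeR p under 0.05 before adjustment. In IL-13 input the TNS3 difference was 0.51 ± 0.28, and in unstimulated polysome 0.41 ± 0.284 (SE, n = 5 and 5, edgeR adjusted p = 1 and 0.823). The 95% intervals were -0.0615 to 1.08 and -0.165 to 0.992. In IL-13 polysome TNS2 was at -0.17 ± 0.287 and TNS3 at 0.29 ± 0.283 (log2, SE, not tested).

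The polysome to input step did not pass as different between lines either. For unstimulated cells the change of the line difference was 0.08 ± 0.403 for TNS2 and -0.21 ± 0.399 for TNS3 (SE, edgeR adjusted p = 1 and 1), and 0% of all genes passed. By the same fit 283 genes had p under 0.05 before adjustment, and DESeq2 called 10. The effects of IL-13 on TNS2 and TNS3 did not pass. Averaged over lines, the log2 effect in input was -0.0021 ± 0.199 for TNS2 and 0.01 ± 0.198 for TNS3 (SE, edgeR adjusted p = 1 and 1), where 0.149% of all genes passed. In polysome it was 0.11 ± 0.203 and 0.05 ± 0.2 (SE, edgeR adjusted p = 1 and 1), where 0.209% passed. The 95% intervals of these 4 effects lay between -0.41 and 0.52.

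TNS4, a short tensin found mainly in epithelia such as prostate, had 32 estimated counts over the 20 input libraries together and 11.6 over the 20 polysome libraries. It was at 0 in all 20 unstimulated libraries. In input it was above 0 in IL-13 control replicate 1, with 1 count, and in IL-13 knockdown replicates 1 to 4, with 5, 1, 1 and 24 counts. In polysome it had 1.6 counts in IL-13 control replicate 4 and 4 and 6 counts in IL-13 knockdown replicates 3 and 4. The highest level was 0.673 CPM. The lowest p of 11 exact permutation tests of log2(CPM + 1) was that of IL-13 against unstimulated knockdown input (two-sided exact permutation p = 0.0476, 0.524 adjusted over the 11, n = 5 and 5), and none of the 11 passed. In 4 of the 11 both groups were at 0 throughout, and after adjustment no single comparison could have passed with groups of 5.

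Principal transcripts of tested protein-coding genes were divided by length into 10 bins of like size. TNS1 and TNS3 lay in bin 10, the longest (7141 bases and over), and TNS2 in bin 8 (4441 to 5441 bases). In unstimulated control cells the median gene of bin 10 had a polysome to input log2 difference of -1.14, and 54.9% of that bin were called lower. In bin 8 the median was -0.46 and 33.2% were called lower. TNS1 at -3.01 and TNS3 at -2.27 were below the middle 50% of genes in their bin (-2.02 to -0.30), and TNS2 at -1.48 was below that of its own (-1.19 to 0.16). The part of length in the tensin values was not tested.

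**Figure D4:**
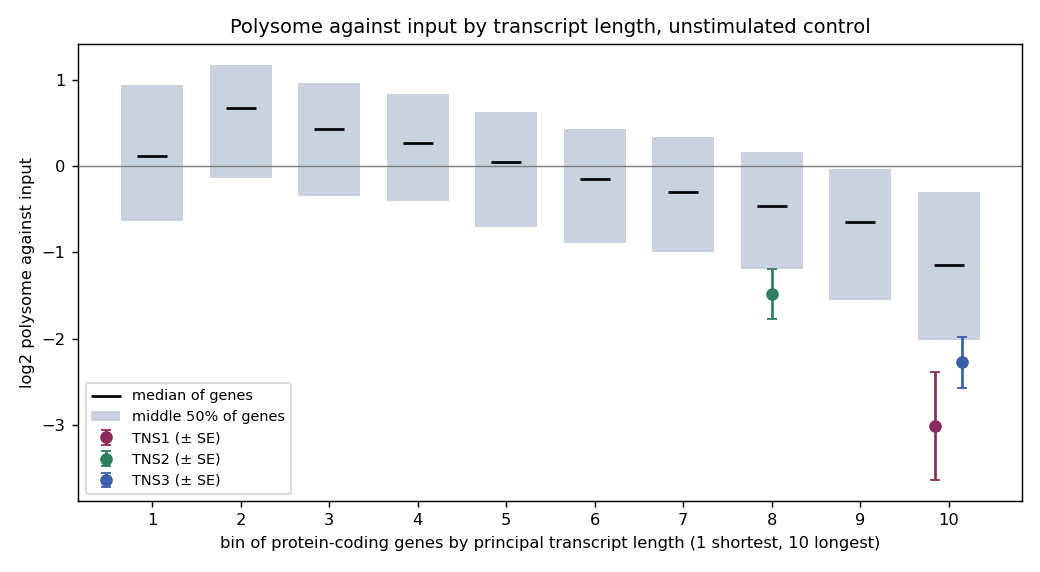
Log2 difference of polysome against input in unstimulated control cells (y axis) for tested protein-coding genes by bin of principal transcript length (x axis); black marks are medians, grey bars the middle 50% of genes, coloured points the tensins with their SE. The median falls from 0.67 in bin 2 to -1.14 in bin 10, and each tensin lies below the grey bar of its bin.

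Tensins work with integrins, with the proteins that link integrins to actin, and with adhesion signalling proteins. A list of 39 such partner genes, chosen from general knowledge, had 37 tested members. In unstimulated control cells 18 of the 37 were called lower and 8 higher in polysome than in input (22.8% of all genes were lower and 17.4% higher), with a median log2 difference of -0.95, and 11 did not pass. The counts with IL-13 were the same, and in unstimulated knockdown cells 17 were lower and 8 higher. The medians were -1.02 in IL-13 control, -0.87 in unstimulated knockdown and -0.73 in IL-13 knockdown cells.

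Genes are named by kind in this and the next paragraph after their values were seen. The share called higher was near that of all genes for the 37 together, which does not hold for each kind. Over all genes 22.8% were called lower and 17.4% higher in unstimulated control polysome. The kinds were not compared with genes of like transcript length, and a difference between kinds was not tested. Of 13 linkers, 8 were called lower in unstimulated control polysome. They included TLN1 and TLN2, talins that activate integrins (-3.58 ± 0.201 and -2.84 ± 0.275, log2, SE), and ACTN4 and ACTN1, α-actinins that cross-link actin (-2.37 ± 0.208 and -2.02 ± 0.179). FLNA (a filamin that cross-links actin), VCL (vinculin) and FERMT2 (a kindlin) were also among them. The 4 called higher were ILK, LIMS1, PARVA and PARVB, the kinase, PINCH and parvin parts of 1 adhesion complex, at 1.21 ± 0.209, 0.71 ± 0.263, 1.19 ± 0.142 and 1.07 ± 0.221. FERMT1, at -1.03 ± 1.11, did not pass.

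TLN1, of smallest p in all 4 settings, fell from 843 CPM ± 191 (SD, n = 5) in unstimulated control input to 70.3 CPM ± 11.2 (SD, n = 5) in its polysome fraction. Of 9 tested integrin subunits 6 were called lower, and ITGB3, ITGB5 and ITGA5 did not pass. Of the 8 tested signalling and zyxin-type genes 4 were called higher, VASP at 1.41 ± 0.196, ZYX at 1.09 ± 0.172, TGFB1I1 at 1.04 ± 0.157 and CAV1 at 0.93 ± 0.279. The last 7 were RhoGAPs, receptors and the ubiquitin ligase CBL. Of these EGFR (-2.50 ± 0.288), MET, STARD13 and CBL were called lower, while DLC1, the TNS2 partner, was at -0.69 ± 0.438 and did not pass, nor did STARD8 and AXL.

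Between lines and with IL-13, edgeR called 0 of the 37 partners in each of 8 comparisons, and DESeq2 called 0 in each as well. Over all genes edgeR called between 0 and 35 of 16735 in these comparisons, and DESeq2 between 10 and 144. A count of 0 among 37 is near those shares and says nothing about the partners. At an unadjusted edgeR p under 0.05 there were between 0 and 6 of 37, the most in the comparison of lines in unstimulated polysome, where 5 of the 6 were higher in knockdown cells and 1242 of all 16735 genes had such a p.

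The tested genes whose levels moved most like each tensin over the 40 libraries, after the mean of each fraction was removed, were found among 13102 genes of at least 1 CPM. For TNS2 they were RHOBTB2 (Pearson r = 0.876), PHLDB1 (0.870) and PAN2 (0.832), and these 3 stayed the closest without the input and polysome libraries numbered 1 of unstimulated control cells. For TNS3 MYH9, the heavy chain of a non-muscle myosin, had r = 0.869 and 0.865 without those libraries. CABP7 had 0.864 and 0.716. The third gene had no symbol in the table of gene names. For TNS1 they were TES (0.614), a LIM protein of adhesions, ALDH1A3 (0.611) and MACF1 (0.598), of which MACF1 stayed among the closest 3 without them. In polysome libraries alone these genes had r = 0.673, 0.690 and 0.688 with TNS1, and in input libraries alone 0.466, 0.455 and 0.253. Every TNS1 correlation over the 40 libraries takes in the IL-13 polysome values that chose the family. Between the tensins r was 0.424 for TNS2 and TNS3, 0.153 for TNS1 and TNS3 and 0.044 for TNS1 and TNS2. Without the unstimulated control libraries numbered 1, TNS1 and TNS3 had 0.361. The genes above were picked as the closest of 13102, so their r cannot be set against that of the tensin pairs. No typical r over all genes is given. Libraries share depth and RNA quality, so these correlations are descriptions with no test.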

How the data were processed

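Polysome and input RNA of 40 libraries was read from a deposited table, which gave an estimated count per gene with decimals and unscaled, per the file headers. Its other columns held TPM, in which the authors had scaled for length and library depth. Trimmomatic, Salmon, MultiQC and DESeq2 are named in the submitters' processing notes, with no versions. Genome build and annotation are not given in the sources used here. Libraries were poly(A)-selected and stranded, per the labels' protocols, and whether counting used strand is not given.

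The design had assumed counts, and the estimated counts were rounded for testing. filterByExpr on the 8 groups left 16735 genes with at least 99.91% of each library's counts. CPM used TMM-scaled totals. The quasi-likelihood fit of edgeR 4.0.16 (R 4.3.3) took 8 group means over the 40 libraries, leaving 32 residual degrees of freedom. P-values were two-sided and Benjamini-Hochberg adjusted over all genes, with calls at an adjusted p under 0.05. TNS4 and the TNS2 to TNS3 ratio had exact permutation tests in scipy 1.17.1. Floors of 3 counts take in counting error alone, because PCR copies were not marked by molecular identifiers. Sequences and transcript lengths came from GENCODE release 29 on GRCh38 principal transcripts, matched by ID for 99.4% of tested protein-coding genes. Symbols came from a table of gene names.

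The members, the lists and the tests were chosen with earlier results of these data known. Named genes were the 4 tensins, up to 4 called partners of smallest p per comparison, the 3 most alike genes per tensin (log2(CPM + 1)) and IGF2BP3. Other genes were named after their values were seen, and 1 partner gene is counted but not reported here. Alternatives were size factors and the Wald test from DESeq2 1.42.0, keeping all genes with 1 count, the libraries compared or those of 1 fraction alone, a block on replicate number over all groups or within line and treatment, the 37 libraries of at least 5000000 counts, leaving out both libraries numbered 1 of unstimulated control cells, a transcript length offset, and leaving out each library. The fitting function was tested on simulated data. None of 80 replicate pairs was a copy (chi-square over its degrees of freedom at least 15.3).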

Additional observations from a re-analysis of the deposited data

Results flagged for a closer look

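Of 27 groups of 5 libraries in which a tensin varied, 3 held a library set apart from the other 4 by more than 0.71 of the group's range. For values spread normally chance flags about 1 in 20 groups, a rate that does not apply to the TNS4 groups, where 1 library above 0 among zeros is always set apart. TNS3 was at 42.5 CPM in unstimulated knockdown polysome replicate 5 and between 57.0 and 61.0 CPM in the other 4, and this value rested on 86.5 estimated counts in the library of lowest depth. TNS4 was at 0.0435 CPM in IL-13 control input replicate 1, which was 1 count, and at 0.0588 CPM in IL-13 control polysome replicate 4, which was 1.6 counts, with the other 4 libraries of each group at 0.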

How the results depend on the processing

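All 190 alternatives of the called polysome against input differences of TNS1, TNS2 and TNS3 kept their direction and call, with a highest adjusted p of 0.0195. The block on replicate number changed no call of a tensin: under it TNS1 differed by -3.05 (adjusted p = 0.000364) in unstimulated control and -2.50 in unstimulated knockdown cells. Same-numbered libraries correlated between -0.662 and 0.73 over the comparisons, and between 0.019 and 0.621 for input and polysome of unstimulated control cells, where 3 of 5 correlated best with their own number. No comparison had every pair over 0.1, so the numbers were not taken to pair the libraries. Leaving out each library, TNS1 ranged from -3.30 to -2.66 and from -2.67 to -2.15. Its folds over the floor ran from 14.8 to 20.2 between lines, 53.5 to 76.2 between fractions and 8.33 to 12.6 with IL-13.

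Effects near 0 changed sign. The TNS2 effect of IL-13 in input (-0.00208) became 0.000286 with DESeq2 size factors, 0.000279 by the Wald test, 0.0178 with the replicate block, 0.0193 with the length offset, and -0.0766 to 0.0546 without single libraries. The TNS3 effect of IL-13 was -0.0954 in input and -0.063 in polysome without both unstimulated control libraries numbered 1, -0.00152 in polysome with libraries of at least 5000000 counts, and -0.0956 to 0.109 and -0.0626 to 0.113 without single libraries. Without single libraries the line difference of TNS2 ran from -0.15 to 0.0582 in unstimulated input, -0.12 to 0.12 in IL-13 input and -0.152 to 0.218 in unstimulated polysome. Its change from input to polysome ran from -0.0999 to 0.285 and that of TNS3 from -0.429 to 0.0178. The TNS2 to TNS3 ratio ran from 0.431 to 1.03 in unstimulated control and 0.597 to 1.04 in IL-13 control, where 1 omission each passed at p under 0.05. The cause was not tested.

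Counts of called genes between lines were unstable. In unstimulated input 2 genes became 5 with DESeq2 size factors, 28 by the Wald test, 11 without the filter or with the libraries compared, 18 with 1 fraction, 0 with the replicate block or the length offset, and 7 with deep libraries or without the libraries numbered 1 of unstimulated control. In IL-13 input 0 became 55 by the Wald test, 19 without the filter, 15 with the libraries compared, 23 with 1 fraction and 8 without those libraries. In unstimulated polysome 5 became 8, 90, 13, 0 and 1 in the order of the first, and 3 with the replicate block or the length offset. In IL-13 polysome 15 became 144 by the Wald test, 0 with the libraries compared or 1 fraction, 30 with deep libraries and 28 without those libraries. Line shifts of 0 and 1 became 10 and 10 by the Wald test, and the second 0 with the block within line and treatment. IL-13 effects of 25 and 35 became 51 and 82 by the Wald test and 38 and 21 with the libraries compared or 1 fraction. Without single libraries the line counts ran from 0 to 5 in unstimulated input (0 without any 1 of 7 libraries), 0 to 23 in IL-13 input (23 without control replicate 4), 1 to 21 in unstimulated polysome (21 without control replicate 3) and 2 to 16 in IL-13 polysome. TNS1 and TNS4 in polysome rested on 115.3 and 6 counts at most, which limits their precision.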
